A study of Mus musculus with 4 samples.

Results

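PICH is the protein of the gene *Ercc6l*. Together with 9 proteins that bind it or are linked to the DNA threads of anaphase, it was followed at the RNA level. The cells were hematopoietic stem and progenitor cells of the mouse fetal liver. The 10 genes, *Ercc6l*, *Blm*, *Top3a*, *Rmi1*, *Rmi2*, *Top2a*, *Plk1*, *Rif1*, *Fancd2* and *Bend3*, were taken by their symbols from a table of 39186 genes, and all 10 were found and tested. RNA sequencing had been carried out on 2 *Pich*-KO and 2 *Pich*-WT samples of LSK cells, the lineage-negative, Sca-1+ and c-Kit+ cells in which stem cells are enriched, sorted from fetal livers of C57BL/6 mice. The *Pich*-KO line carries a germline deletion of a few bases at the beginning of exon 2, made with TALENs, so every cell type of the embryo and not the blood lineage alone bears it. *Ercc6l* lies on the X chromosome, and the *Pich*-WT samples carry the intact gene. The study's sorting methods describe livers of E14.5 embryos and antibodies against CD4, CD8, Gr-1, B220 and Ter119 for the lineage gate. Neither an agent nor another allele is named for either group. No source states whether the samples of a group came from different embryos. The *Pich*-WT samples did not hold RNA of the same embryos, since Y-linked genes were read in one and not in the other, but for the *Pich*-KO samples the p-values below may rest on technical spread.

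Sister chromatids can stay joined by threads of DNA when they are pulled apart in anaphase. These ultrafine bridges carry no histones, do not take up the usual DNA dyes, and arise at centromeres, at under-replicated fragile sites and from unresolved recombination intermediates. PICH is a DNA translocase of the SNF2 family that coats such bridges and recruits the BLM helicase with its partners TOP3A, RMI1 and RMI2, while TOP2A unlinks intertwined duplexes, PLK1 binds and phosphorylates PICH, and RIF1 is drawn to the bridges through PICH. FANCD2 marks both ends of bridges that come from fragile sites, and BEND3 is a chromatin protein that binds PICH.

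Transcripts of 6 of the 10 were more abundant in *Pich*-KO than in *Pich*-WT LSK cells, 0 were less abundant and 4 did not pass the test (limma on the log2 scale, Benjamini-Hochberg adjusted p under 0.05 over all genes tested). The 6 were *Bend3*, *Fancd2*, *Blm*, *Ercc6l*, *Rmi2* and *Top2a*, with log2 fold changes from 1.55 down to 0.48. Among all 32428 genes tested, 7.58% were higher and 9.6% were lower. Among the 11794 genes with a mean normalized count of at least 50, which all 10 genes reach, 19.5% were higher and 22.6% lower. On whole reads recovered from the table, edgeR also called 6 of the 10 higher, the same genes, and 0 lower, against 18.6% and 20.7% of all genes it tested. Both *Pich*-KO samples lay above both *Pich*-WT samples for 8 of the 10 genes and below them for 1, against 28.9% and 27.2% of all genes tested. The median log2 fold change of the 10 was 0.56, while that of all genes tested was 0.02 and the middle 50% of all genes ran from -0.64 to 0.59.

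**Figure D1:**
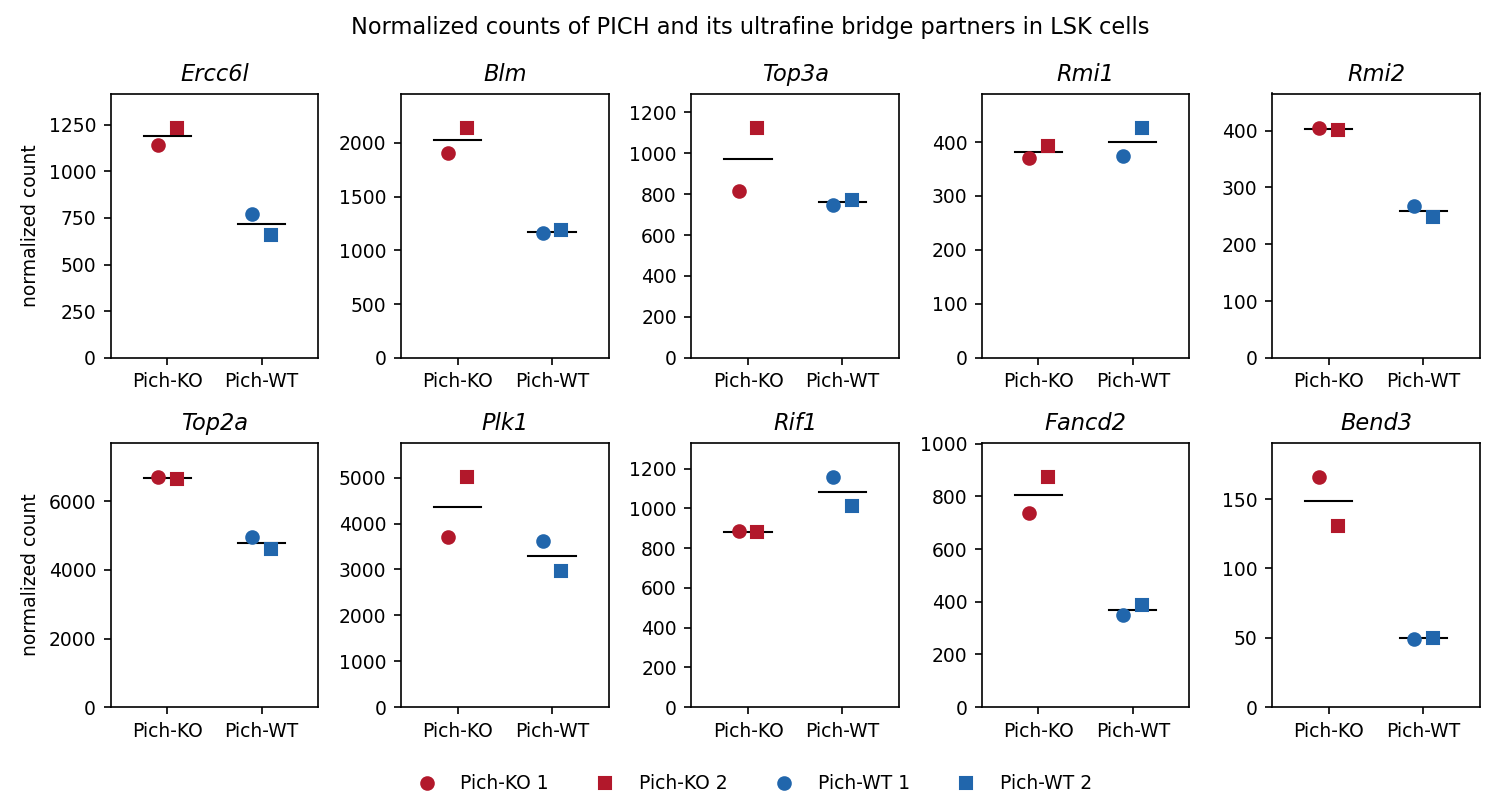
Normalized count (vertical axes, linear from 0, one scale per gene) of each of the 10 genes in the 2 *Pich*-KO samples (red) and the 2 *Pich*-WT samples (blue), with a line at each group's mean. The groups overlap for *Rmi1*, *Rif1* is lower in both *Pich*-KO samples, and the other 8 genes are higher in both.

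Levels are given here as normalized counts, reads counted on a gene and scaled by one factor for each sample. Fold changes were taken as log2 of the normalized count plus 1, which slightly understates the change of genes with few reads. *Ercc6l* (ENSMUSG00000051220, chrX:102141716-102157091, minus strand, GRCm38) had normalized counts of 1142 and 1232 in *Pich*-KO samples 1 and 2, and of 772 and 661 in *Pich*-WT samples 1 and 2. Both *Pich*-KO samples lay above both *Pich*-WT samples, although this is the gene that carries the deletion. The log2 fold change was 0.73 ± 0.14 (SE, 95% confidence interval 0.41 to 1.05, adjusted p = 0.00887, limma), a ratio of group means of 1.66. The transcript remained countable in the *Pich*-KO samples, and its level therefore does not check the genotype labels.

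The position of the altered exon is shown by the junction between exon 1 and exon 2 of the *Ercc6l* transcript in GENCODE M21, printed from the start codon with the first 60 bases of exon 2 in capitals (coding bases chrX:102156908-102156975 of exon 1, then chrX:102146774-102146833, minus strand, reference sequence of GRCm38). Exon 2 holds 5118 bases, 96.53% of the transcript and 98.17% of its coding bases, so most of the sequence to which reads of the gene can be assigned lies in the exon that begins at the capitals.
Ercc6l exon 1 to 2: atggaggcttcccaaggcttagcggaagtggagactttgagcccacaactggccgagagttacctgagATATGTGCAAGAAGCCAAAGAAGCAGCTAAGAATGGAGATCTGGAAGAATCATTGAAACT

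*Pich*-WT sample 2 had a summed normalized count of 0 over 4 genes of the Y chromosome (*Eif2s3y*, *Kdm5d*, *Ddx3y*, *Uty*), where the other 3 samples had sums between 1753 and 3237. As *Ercc6l* is X-linked, its value was also taken without that sample: it came to 0.62 on the log2 scale. Leaving out *Pich*-KO sample 1, *Pich*-KO sample 2 or *Pich*-WT sample 1 instead gave 0.79, 0.68 and 0.84. The call was lost in each of these fits. Each leaves a single sample in a group, and most calls of other genes were lost in them too. Among the genes beside *Ercc6l*, *Pin4*, a prolyl isomerase gene on the opposite strand, had normalized counts of 466 and 564 in *Pich*-KO against 327 and 293 in *Pich*-WT, which is a difference on the log2 scale of 0.72 ± 0.18 (SE, adjusted p = 0.0258, limma). *Rps4x*, a ribosomal protein gene, had a log2 fold change of 0.56 ± 0.09 (SE, adjusted p = 0.00508, limma). *Nhsl2* (0.11, adjusted p = 0.839, limma) and *Cited1* (-1.08, adjusted p = 0.296, limma) did not pass the test. The closest of these 4 neighbours thus differed between genotypes by about as much as *Ercc6l* itself.

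Of the 4 subunits of the dissolution complex that PICH brings to bridges, 2 passed the test and 2 did not. *Blm* (ENSMUSG00000030528, chr7:80454733-80535119, minus strand), the RecQ helicase of the complex, had normalized counts of 1908 and 2138 in *Pich*-KO and of 1158 and 1189 in *Pich*-WT. The groups were well apart, with a log2 fold change of 0.78 ± 0.12 (SE, 95% confidence interval 0.51 to 1.05, adjusted p = 0.00284, limma). *Rmi2* (ENSMUSG00000037991, chr16:10835059-10892966, plus strand), the smaller of the 2 OB-fold subunits, had 405 and 401 in *Pich*-KO against 268 and 248 in *Pich*-WT. Its log2 fold change was 0.64 ± 0.17 (SE, 95% confidence interval 0.25 to 1.03, adjusted p = 0.0358, limma), and both *Pich*-KO samples were above the *Pich*-WT samples. This is the weakest of the 6 calls, and with no filter on the mean its adjusted p was 0.052 (limma).

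*Top3a* (ENSMUSG00000002814, chr11:60740058-60777365, minus strand) encodes the topoisomerase that passes single strands through one another. Its normalized counts were 816 and 1123 in *Pich*-KO against 748 and 771 in *Pich*-WT. *Pich*-KO sample 1 was close to the *Pich*-WT samples and *Pich*-KO sample 2 was well above them, and the log2 fold change of 0.33 ± 0.17 (SE, 95% confidence interval -0.07 to 0.73, adjusted p = 0.258, limma) did not pass the test. *Rmi1* (ENSMUSG00000035367, chr13:58402248-58411148, plus strand), the scaffold subunit that holds BLM and TOP3A together, had 370 and 392 in *Pich*-KO against 374 and 426 in *Pich*-WT. The groups overlapped, and the log2 fold change was -0.07 ± 0.17 (SE, 95% confidence interval -0.45 to 0.32, adjusted p = 0.847, limma). With an upper bound of 0.32, a small increase of *Rmi1* could not be told from none. *Rmi1* shares 330 exon bases, 5.02% of its exons, with *Hnrnpk* on the opposite strand, a gene with up to 28780 normalized counts in a sample, and reads in that stretch cannot be assigned without strand information.

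Levels of different genes were compared only per kilobase of exon. The ratio of *Blm* to *Rmi1* per kilobase was 3.86 and 4.08 in *Pich*-KO against 2.32 and 2.09 in *Pich*-WT. The ratio of *Rmi2* to *Rmi1* was 1.6 and 1.5 against 1.05 and 0.85. Both ratios were higher in each *Pich*-KO sample than in each *Pich*-WT sample, whereas the ratio of *Ercc6l* to *Blm* (0.99 and 0.95 against 1.10 and 0.92) overlapped between the genotypes. These ratios are a description, and no test of them was run.

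Apart from PICH and the complex, the enzymes of mitosis among the 10 are TOP2A and PLK1. *Top2a* (ENSMUSG00000020914, chr11:98992943-99024189, minus strand), the topoisomerase that decatenates sister chromatids in mitosis, had normalized counts of 6706 and 6651 in *Pich*-KO and of 4955 and 4613 in *Pich*-WT. It had the highest counts of the 10 genes, and the *Pich*-KO samples differed from each other by far less than from the *Pich*-WT samples. The log2 fold change was 0.48 ± 0.08 (SE, 95% confidence interval 0.29 to 0.68, adjusted p = 0.00569, limma), the smallest change and the smallest standard error among the 6 called genes. *Plk1* (ENSMUSG00000030867, chr7:122159439-122169873, plus strand), the mitotic kinase for which PICH is named as an interacting helicase, had 3703 and 5010 in *Pich*-KO against 3627 and 2973 in *Pich*-WT. *Pich*-KO sample 1 was close to *Pich*-WT sample 1 and *Pich*-KO sample 2 far above it, and the log2 fold change of 0.39 ± 0.16 (SE, 95% confidence interval 0.03 to 0.76, adjusted p = 0.148, limma) did not pass the test after adjustment.

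Promoters were looked at because *Top2a* and *Plk1* belong to the genes that are transcribed late in the cell cycle, for which CCAAT boxes and the cell cycle homology element TTTGAA are known. RefSeq promoter sequences (GRCm38.p6, 250 bases before to 50 bases after a start) matched 5 of the 10 genes, with 7 starts. The 250 bases before the start are printed for *Top2a*, *Plk1* and *Blm*, 5′ to 3′ on the gene's strand, with CCAAT and TTTGAA on either strand in capitals (chr11:99024190-99024439 minus, chr7:122159185-122159434 plus and chr7:80534999-80535248 minus).
Top2a: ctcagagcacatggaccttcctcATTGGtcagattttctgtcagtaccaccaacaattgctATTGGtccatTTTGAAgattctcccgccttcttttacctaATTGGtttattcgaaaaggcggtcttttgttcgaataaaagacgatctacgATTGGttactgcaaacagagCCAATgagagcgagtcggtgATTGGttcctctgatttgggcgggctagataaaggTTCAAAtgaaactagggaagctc
Plk1: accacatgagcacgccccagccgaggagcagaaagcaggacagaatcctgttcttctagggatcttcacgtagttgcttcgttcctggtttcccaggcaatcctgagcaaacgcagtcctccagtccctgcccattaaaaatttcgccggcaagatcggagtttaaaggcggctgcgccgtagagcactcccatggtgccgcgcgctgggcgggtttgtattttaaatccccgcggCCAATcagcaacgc
Blm: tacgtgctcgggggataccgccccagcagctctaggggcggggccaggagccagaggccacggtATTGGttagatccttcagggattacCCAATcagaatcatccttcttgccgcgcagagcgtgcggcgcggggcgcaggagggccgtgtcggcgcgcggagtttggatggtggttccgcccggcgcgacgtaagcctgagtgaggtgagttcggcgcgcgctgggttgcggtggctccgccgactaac

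The *Top2a* window held 6 CCAAT boxes, with first bases at -227, -189, -149, -98, -78 and -58 from the start, and TTTGAA at -179 and, on the reverse strand, at -23. *Plk1* had a CCAAT box at -14 and TTTGAA at +31, beyond the printed bases. *Blm* had CCAAT boxes at -186 and -161 and no TTTGAA. Across the 7 starts, 5 held CCAAT and 2 held TTTGAA, against 37.4% and 17.9% of 32851 promoter windows of the same 300 bases. Both starts of *Rmi1*, whose log2 fold change was -0.07, were among the 5 with CCAAT, so these are not all separate genes. *Plk1*, also among them, did not pass the test. One of the E2F letters searched (TTTGGCGC, TTTCCCGC and TTTCGCGC, both strands, found in 1.84% of windows) occurred in 1 start, the second of *Rmi1*, and the core of interferon-stimulated response elements (GAAA, any 2 bases, GAAA, both strands, 3.44% of windows) in 0. These are matches of letters and not tested sites. The 2 starts of *Bend3*, the gene with the largest change, held no match to any of them in these windows.

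The genes with roles at stalled replication forks and in chromatin held both the largest increases and the one gene that was lower in both *Pich*-KO samples. *Fancd2* (ENSMUSG00000034023, chr6:113531682-113597017, plus strand), the Fanconi anemia protein that is monoubiquitinated at stalled forks, had normalized counts of 737 and 873 in *Pich*-KO and of 348 and 386 in *Pich*-WT. The lower *Pich*-KO sample was well above the higher *Pich*-WT sample, and the log2 fold change was 1.13 ± 0.16 (SE, 95% confidence interval 0.76 to 1.5, adjusted p = 0.00229, limma), a ratio of group means of 2.19. *Fanci*, whose protein forms a clamp with FANCD2 and which was picked out after its values had been seen, had 576 and 631 in *Pich*-KO against 550 and 516 in *Pich*-WT. Its log2 fold change of 0.18 ± 0.15 (SE, adjusted p = 0.503, limma) did not pass the test. The ratio of *Fancd2* to *Fanci* per kilobase was 0.93 and 1.01 in *Pich*-KO against 0.46 and 0.54 in *Pich*-WT, without overlap. *Fancd2* shares 257 exon bases, 3.24% of its exons, with *Fancd2os* on the opposite strand.

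*Bend3* (ENSMUSG00000038214, chr10:43478831-43515396, plus strand), a BEN domain protein found on heterochromatin, had normalized counts of 166 and 131 in *Pich*-KO and of 49.2 and 50 in *Pich*-WT. It had the largest fold change of the 10 genes and the lowest level, with 50 to 63 reads in the *Pich*-WT samples. The log2 fold change was 1.55 ± 0.27 (SE, 95% confidence interval 0.93 to 2.17, adjusted p = 0.00556, limma), a ratio of group means of 2.99. *Rif1* (ENSMUSG00000036202, chr2:52072832-52122383, plus strand), which controls replication timing and works with 53BP1 at DNA breaks, had 885 and 881 in *Pich*-KO against 1157 and 1013 in *Pich*-WT. Both *Pich*-KO samples were below both *Pich*-WT samples, which was seen for no other of the 10. The log2 fold change of -0.29 ± 0.13 (SE, 95% confidence interval -0.60 to 0.01, adjusted p = 0.191, limma) did not pass the test, so that this difference was not larger than the spread allowed for.

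**Figure D2:**
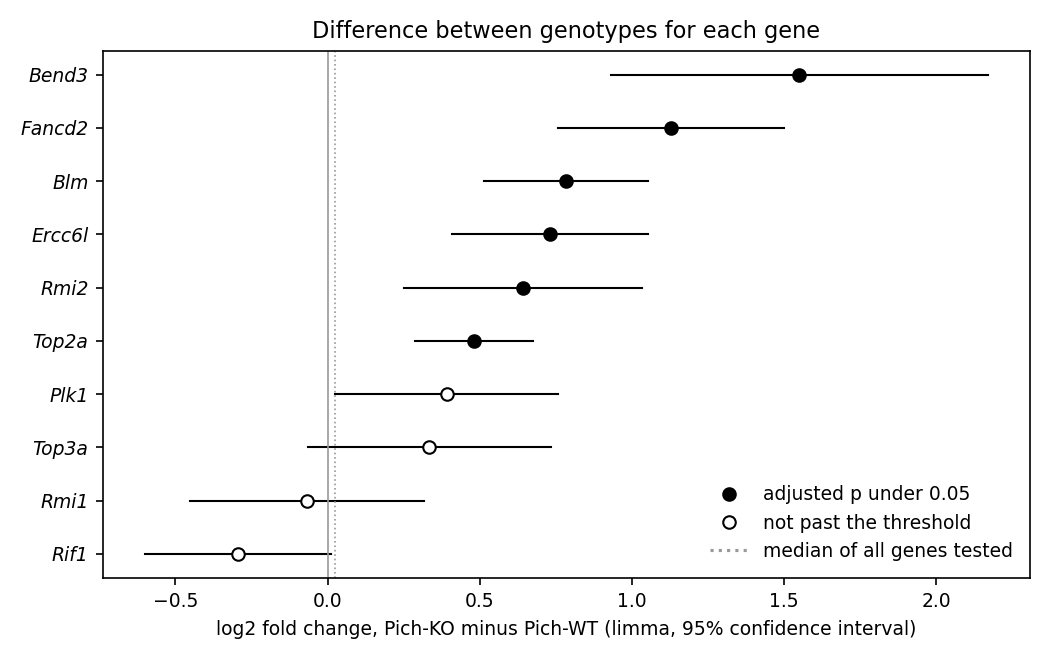
Log2 fold change of each gene, *Pich*-KO minus *Pich*-WT (horizontal axis), with its 95% confidence interval from limma. Filled points have an adjusted p under 0.05, and the dotted line marks the median of all genes tested, 0.02. The 6 filled points run from 0.48 for *Top2a* to 1.55 for *Bend3*, and the intervals of *Rif1*, *Rmi1* and *Top3a* include 0.

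The genes stood at very different levels. Per kilobase of exon, *Plk1* was highest in *Pich*-WT at 1501 ± 210.3 normalized counts (SD, n = 2), followed by *Top2a* at 531 ± 26.8 (SD, n = 2). *Top3a* came next at 165 ± 3.55 (SD, n = 2), then *Ercc6l* at 135 ± 14.8 (SD, n = 2) and *Blm* at 134 ± 2.48 (SD, n = 2), which overlapped between samples. *Rif1* followed at 103 ± 9.72 (SD, n = 2). *Rmi1* at 60.9 ± 5.65 (SD, n = 2) and *Rmi2* at 57.4 ± 3.16 (SD, n = 2) overlapped, with *Fancd2* at 46.2 ± 3.41 (SD, n = 2) below them and *Bend3* last at 7.28 ± 0.08 (SD, n = 2). In *Pich*-KO the first and last places were the same, with *Plk1* at 1981 ± 420.2 (SD, n = 2) and *Bend3* at 21.7 ± 3.64 (SD, n = 2). *Blm* at 230.5 ± 18.6, *Ercc6l* at 224 ± 12 and *Top3a* at 211 ± 47.2 (SD, n = 2 each) overlapped there. *Fancd2* at 101 ± 12.1 (SD, n = 2) stood above *Rmi2* and *Rif1* in both *Pich*-KO samples, while it was below both in each *Pich*-WT sample. By level per kilobase, *Bend3* stood above 60.6% and *Plk1* above 98.3% of the genes tested, and the other 8 genes lay between.

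**Figure D3:**
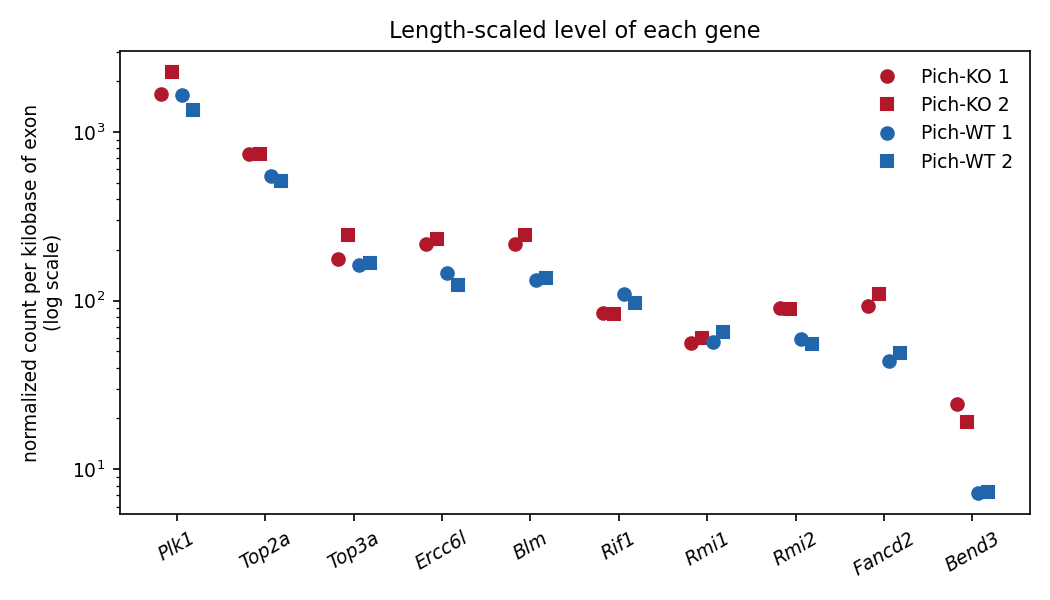
Normalized count per kilobase of exon (vertical axis, log scale) of the 10 genes in each of the 4 samples, ordered by their level in *Pich*-WT. *Plk1* and *Top2a* are highest and *Bend3* lowest in all 4 samples, and *Fancd2* passes *Rif1* and *Rmi2* in the *Pich*-KO samples.

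Other genes that act on bridges or on the structures they come from were counted in the same way. Among genes with a mean of at least 50, 19.5% were higher and 22.6% lower. Of 13 further bridge processing genes, 6 were higher in *Pich*-KO, 0 were lower and 7 did not pass the test, with a median log2 fold change of 0.40 (0.02 for all genes tested). The 4 with the largest change past the test were *Trp53bp1* (1.22 ± 0.15), the 53BP1 partner of RIF1 at breaks, *Slx4* (1.02 ± 0.18), a scaffold of structure-specific nucleases, *Topbp1* (0.84 ± 0.12), which binds bridges and activates ATR, and *Smc5* (0.53 ± 0.13, log2 fold change and SE in each case, limma). *Trp53bp1* had 1492 and 1183 normalized counts in *Pich*-KO, above the 566 and 572 in *Pich*-WT, whereas those of its partner *Rif1* were below.

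The lists that follow stand beside the same shares, 19.5% higher and 22.6% lower among genes with a mean of at least 50. Of 8 other topoisomerase and RecQ helicase genes, 5 were higher, 0 were lower and 3 did not pass, with a median of 0.59. *Top2b*, the paralog of *Top2a* that is also used outside mitosis, changed most, with 2293 and 1627 normalized counts in *Pich*-KO against 577 and 548 in *Pich*-WT. Its log2 fold change was 1.78 ± 0.17 (SE, 95% confidence interval 1.37 to 2.18, adjusted p = 0.000405, limma), and this interval lies above that of *Top2a*. *Recql4* (0.95), *Top1mt* (0.95), *Wrn* (0.61) and *Recql5* (0.57) were also higher on the log2 scale. Among 5 near relatives of PICH in the SNF2 family, 3 were higher, 0 were lower and 2 did not pass, with a median of 0.69. These ranged from *Ercc6l2* (0.69), a helicase-like gene named after *Ercc6*, to *Ercc6* itself (2.02 ± 0.32, SE), which acts in transcription-coupled repair. *Ercc6* had normalized counts of 293 and 356 in *Pich*-KO against 109 and 57 in *Pich*-WT, so its *Pich*-WT samples were far apart.

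Genes of mitosis and of S phase were counted beside the shares given above for genes with a mean of at least 50, of which 19.5% were higher and 22.6% lower. A list of 9 genes held genes of the chromosomal passenger complex and the polo kinase family, together with *Bub1* and *Bora*. Of these 9, 3 were higher, 1 was lower and 5 did not pass, with a median log2 fold change of 0.13. *Bub1*, the checkpoint kinase that marks centromeric chromatin, rose by 0.72 ± 0.10 (SE, adjusted p = 0.00227, limma), *Plk4* had a log2 fold change of 0.41 and *Aurkb* of 0.36, and *Plk2*, a polo kinase induced by stress, fell by 1.13 on the log2 scale. Of 20 G2/M genes, 4 were higher, 1 was lower and 15 did not pass, with a median of 0.18, from *Nusap1* at -0.43 to *Kif11*, a spindle motor, at 1.03. Of 16 S phase genes, 9 were higher, 0 were lower and 7 did not pass, with a median of 0.38, and those that passed ran from *Mcm2* (0.31) to *Uhrf1* (0.64). The fold changes of *Bend3* and *Fancd2* lay above those of all 16 S phase and all 20 G2/M genes. Those of *Blm* (0.78) and *Ercc6l* (0.73) lay above all 16 S phase genes but within the range of the G2/M genes, below *Kif11*. *Rmi2* (0.64), *Top2a* and *Plk1* lay within the range of both lists.

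**Figure D4:**
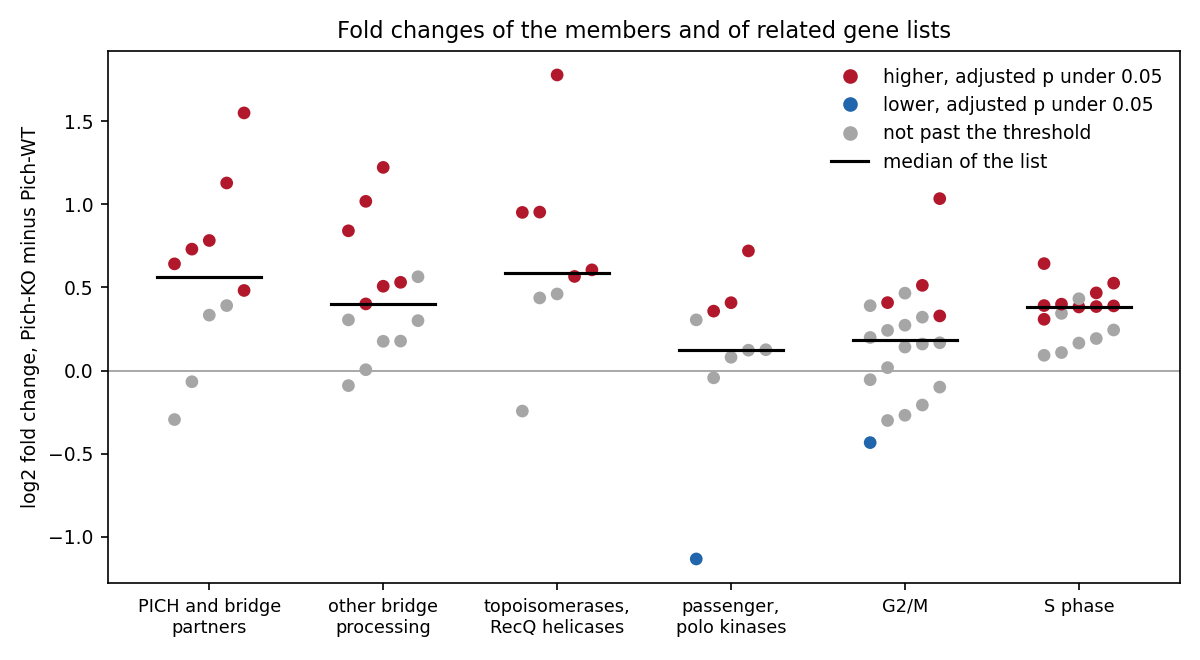
Log2 fold change, *Pich*-KO minus *Pich*-WT (vertical axis), of every gene in 6 lists, with higher calls in red, lower calls in blue, genes past no threshold in grey and a line at each list's median. The medians run from 0.13 to 0.59, beside 0.56 for PICH and its partners. The lowest is that of the passenger and polo kinase list with *Bub1* and *Bora*, and the highest that of topoisomerases and RecQ helicases.

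The sorted samples also differed in genes of other cell types, and these values stand beside the counts above. Of all genes tested, 9.6% were lower and 7.58% higher. Among those with a mean of at least 50, the shares were 22.6% and 19.5%. Of 15 macrophage genes 14 were lower in *Pich*-KO against 0 higher, with summed normalized counts of 15109 and 14019 in *Pich*-KO and of 77075 and 76870 in *Pich*-WT, and with *Marco* (-7.22) and *Csf1r* (-1.33) as the largest and smallest log2 changes past the test. Of 12 erythroid genes 10 were lower and 0 higher, with sums of 36905 and 40032 against 203674 and 144207, from *Hbb-bs* (-3.17) to *Rhag* (-0.72). Of 9 hepatoblast genes 5 were lower and 0 higher, with sums of 3168 and 2665 against 4974 and 4451, from *Trf* (-2.22) to *Apoa2* (-0.81). Of 5 genes of the mature lineages that the gate should remove, *Cd4* was lower (-2.50) and the other 4 did not pass. None of the genes on these lists was at 0 in all samples of a group.

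The stem and progenitor markers changed in both directions. Of 12 such genes, 2 were higher, 5 were lower and 5 did not pass (19.5% and 22.6% of genes with a mean of at least 50 were higher and lower), from *Ly6a* (1.74), which encodes Sca-1, to *Procr* (-2.88), a stem cell surface receptor. *Kit*, the other gene of the gate, had 4447 and 2772 normalized counts in *Pich*-KO against 2328 and 2513 in *Pich*-WT, and did not pass the test (0.54 on the log2 scale, adjusted p = 0.114, limma). In such bulk samples fewer cells of a type and less RNA per cell cannot be told apart, and the same holds for a higher share of cycling cells and more RNA of a mitotic gene per cell. The part of these marker differences in the changes of PICH and its partners was not tested.

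The directions of 9 of the 10 genes did not rest on one sample, but the calls needed all 4, apart from that of *Blm* in one refit. With each sample left out in turn, all genes other than *Rmi1* kept the sign of their log2 fold change, and *Bend3*, *Fancd2*, *Blm*, *Ercc6l*, *Rmi2* and *Top2a* stayed at 0.43 or above. *Plk1* moved from 0.17 without *Pich*-KO sample 2 to 0.61 without *Pich*-KO sample 1, and *Top3a* from 0.10 to 0.56 with the same samples left out. The number of the 10 genes past the test was 1 (*Blm*) without *Pich*-KO sample 1 and 0 without any other sample (limma, with the lone sample of a group assumed to vary like the other group). It was also 0 when limma's prior variance was not allowed to follow the mean, where 5 of the 10 were higher at an unadjusted p under 0.05.

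**Figure D5:**
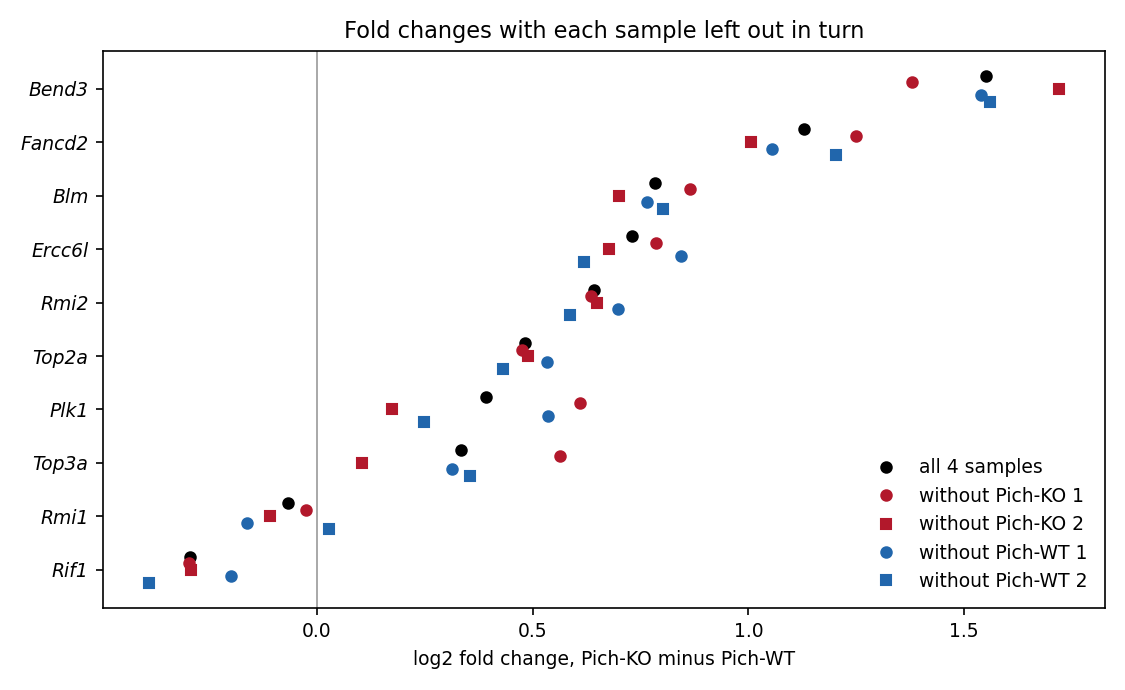
Log2 fold change of each gene, *Pich*-KO minus *Pich*-WT (horizontal axis), with all 4 samples (black) and without each sample in turn (red for *Pich*-KO, blue for *Pich*-WT left out). *Rmi1* lies on both sides of 0, from -0.16 to 0.03, and the points of *Plk1* and *Top3a* are spread most by the choice of *Pich*-KO sample.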

How the data were processed

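LSK cells had been sorted from fetal liver, RNA was extracted with Trizol, and libraries were made with the Illumina TruSeq RNA kit. The authors deposited one table in which reads per Ensembl gene had been scaled by a single size factor for each sample, here called normalized counts, a signal whose values are whole multiples of one step. Whole reads were recovered from it (tolerance 0.001) for 100% of the values, which gave 15195434 (*Pich*-KO 1), 14703215 (*Pich*-KO 2), 20933919 (*Pich*-WT 1) and 15567891 (*Pich*-WT 2) reads on genes. The deposited table also holds log2 fold changes and p-values of the authors' own comparison and the authors' group means, none of which was used. The submitters' processing notes name Bowtie 0.12.2 and the mm8 and mm9 builds, without saying for which step. The coordinates in the table are those of GRCm38: start and end were identical for 97.83% of the 39131 genes present in GENCODE M21, among them all 10 genes. The counter and the test of the authors are not given in the sources used here.

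Normalized counts plus 1 were analysed on the log2 scale by limma 3.58.1 in R 4.3.3, with eBayes trend on, so that the prior variance can vary with the mean, over 32428 genes with a mean of at least 1, and p-values were adjusted by Benjamini-Hochberg over all of them (threshold 0.05). Because the values are not raw counts, edgeR 4.0.16 and DESeq2 1.42.0 were run on recovered reads as alternatives. The other alternatives were a pseudocount of 0.1, no filter, at least 10 reads in every sample, scaling to equal totals, one prior variance, a replicate block, and leaving out each sample. The 2 samples of each group differed by more than counting noise (chi-square per degree of freedom 17.7 in *Pich*-KO against 9.54 in *Pich*-WT), so no library was taken as a second deposit of another. This does not show that they are independent. The main limma fit, edgeR with TMM scaling and DESeq2 were tried on simulated counts, and the other alternatives were not. With 2 samples in each group, the parts of depth and of sample number in the precision were not tested. Depth left 50 reads or more for each of the 10 genes in every sample.

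The 10 genes and all lists were chosen with earlier results of these data known. Named by rule were the 10 genes, in each list the largest and the smallest called change, up to 4 in each direction in 3 lists, and the 2 genes on each side of *Ercc6l*. The comparison with genes whose mean is at least 50, the ratios between genes, and *Fanci* and *Kit* as named genes were added after the data had been seen. One gene named by the rule is not reported here.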

Additional observations from a re-analysis of the deposited data

How the results depend on the processing

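The count of 6 higher genes among PICH and its partners stayed at 5 to 7 with at least 10 reads in every sample, without a filter, with a pseudocount of 0.1, with edgeR with TMM or upper-quartile scaling, DESeq2, equal totals and the replicate block, with 0 lower throughout, and the median log2 fold change stayed between 0.50 and 0.62 in every alternative. The count of 6 higher bridge processing genes was 4 with equal totals and without a filter, 5 with a pseudocount of 0.1, 7 with DESeq2 and 8 with at least 10 reads in every sample and with edgeR under either scaling. With one prior variance for all genes limma called 0 genes higher, 0 lower, 0 of the 10 genes higher and 0 bridge processing genes higher, although 7377 genes had an unadjusted p under 0.05. With each sample left out in turn, the counts ranged from 0 to 548 genes higher, from 0 to 1193 lower, from 0 to 1 of the 10 genes higher and from 0 to 1 bridge processing genes higher. Without *Pich*-KO sample 1 the counts were 548, 1193, 1 and 1, and without any of the other 3 samples all were 0. These refits have a single residual degree of freedom, and the cause was not tested further. The log2 fold change of *Rmi1* was -0.07 with all samples and ranged from -0.161 without *Pich*-WT replicate 1 to 0.028 without *Pich*-WT replicate 2. The labels do not say that replicate numbers mark a litter or batch, and the deviations of equally numbered samples had a correlation of 0.01 over 10544 genes. With the replicate block, 7 of the 10 genes were higher (*Plk1* added, adjusted p = 0.0151, limma), as were 7 bridge processing genes, among 3122 higher and 3874 lower genes.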
